A study of Mus musculus with 20 samples.

Results

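The major histocompatibility complex (MHC) and antigen processing genes were taken as the rows of the deposited count table whose symbol starts with H2- and is not marked as a pseudogene, together with B2m, Tap1, Tap2, Tapbp, Psmb8, Psmb9, Psmb10, Cd74, Ciita, Nlrc5, Cd80, Cd86 and Cd274. The rule found 51 genes among 25719. They comprised 27 class I molecules, 8 class I processing genes (B2m, Tap1, Tap2, Tapbp, the 3 immunoproteasome subunits and Nlrc5), 12 class II pathway genes, 3 costimulatory or checkpoint ligands, and H2-Ke6, which has an H2 name but encodes a dehydrogenase. Of these, 33 passed the filter on low counts, as did 12424 genes of the table: 16 class I molecules, all 8 processing genes, 7 class II pathway genes, Cd274 and H2-Ke6.

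RNA was measured by bulk SmartSeq II sequencing in keratinocytes sorted from ear and dorsal skin of 20 mice, 5 in each of 4 groups. The conditional knockout (cKO) mice were K14-CreERTam x Cyp11b1 L2/L2, that is, they carried floxed Cyp11b1 and a tamoxifen-dependent Cre recombinase under the Krt14 promoter, which is active in basal keratinocytes. Controls were littermates with the same floxed alleles and no Cre, so both genotypes received tamoxifen for 5 days and only one of them carried the recombinase. Topical groups received tamoxifen in ethanol on the ear (20 µl) and shaved back (100 µl), and systemic groups received intraperitoneal injections of 100 µl at 10 mg/ml in oil and ethanol, with cells taken on day 6. Route therefore differed together with vehicle, dose site and shaving, and ages are not given in the labels. The comparisons address the effect of keratinocyte Cyp11b1, which encodes the last enzyme of corticosterone synthesis, under each route. Values of a group are given below in the order of the mouse numbers, which are names only: topical controls 1, 3, 5, 6 and 7, topical cKO 2, 3, 4, 5 and 7, systemic controls 1, 3, 4, 5 and 6, and systemic cKO 2, 4, 5, 6 and 7.

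Class I molecules are carried by nearly all nucleated cells and present peptides from the cell's own proteins to CD8+ T cells. Proteasomes make the peptides, in interferon-stimulated cells with the immunoproteasome subunits Psmb8, Psmb9 and Psmb10, the Tap1 and Tap2 transporter moves them into the endoplasmic reticulum, and tapasin (Tapbp) helps load them onto a heavy chain bound to B2m. Class II molecules present peptides from endosomes to CD4+ T cells, with Cd74 (the invariant chain) and H2-DM steering the loading, and are normally a feature of professional antigen-presenting cells such as Langerhans cells, although interferon-gamma can induce them in keratinocytes. Nlrc5 is the transactivator of class I genes and Ciita that of class II genes, and both act through a promoter module of conserved boxes.

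Promoters are shown for 3 class I genes that share a layout of boxes, for B2m, whose window holds an interferon pattern, and for the class II gene H2-Aa, for comparison of that layout. RefSeq windows of 300 bases (250 before and 50 after each start, build GRCm38.p6) were matched by symbol to 39 of the 51 genes, of which 23 had passed the filter. The patterns searched, on both strands, were the core of the interferon-stimulated response element (GAAA, any 2 bases, GAAA), CCAAT (the Y box, which reads ATTGG on the other strand), GGGNNTTCC (the kB site) and the palindromic glucocorticoid response element. The bases before the start are printed 5′ to 3′ on the gene's strand for H2-K1 (chr17:34000348-34000597, minus strand), H2-Q4 (chr17:35379367-35379616, plus), H2-Q7 (chr17:35438905-35439154, plus), B2m (chr2:122147437-122147685, plus) and H2-Aa (chr17:34287824-34288073, minus), with matches in capitals.
H2-K1: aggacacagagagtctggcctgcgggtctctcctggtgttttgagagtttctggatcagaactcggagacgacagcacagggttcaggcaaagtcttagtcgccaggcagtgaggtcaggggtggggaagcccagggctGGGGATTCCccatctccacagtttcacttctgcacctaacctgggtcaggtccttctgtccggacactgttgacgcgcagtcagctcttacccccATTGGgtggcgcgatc
H2-Q4: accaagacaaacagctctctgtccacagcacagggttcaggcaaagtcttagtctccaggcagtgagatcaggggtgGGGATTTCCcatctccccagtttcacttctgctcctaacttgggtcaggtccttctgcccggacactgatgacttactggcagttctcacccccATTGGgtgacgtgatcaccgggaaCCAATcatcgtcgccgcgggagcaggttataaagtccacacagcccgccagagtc
H2-Q7: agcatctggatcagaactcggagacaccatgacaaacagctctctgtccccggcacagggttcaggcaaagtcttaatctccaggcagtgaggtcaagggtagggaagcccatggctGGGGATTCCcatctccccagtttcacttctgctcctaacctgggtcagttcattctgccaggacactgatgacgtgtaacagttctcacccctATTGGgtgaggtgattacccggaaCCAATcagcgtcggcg
B2m: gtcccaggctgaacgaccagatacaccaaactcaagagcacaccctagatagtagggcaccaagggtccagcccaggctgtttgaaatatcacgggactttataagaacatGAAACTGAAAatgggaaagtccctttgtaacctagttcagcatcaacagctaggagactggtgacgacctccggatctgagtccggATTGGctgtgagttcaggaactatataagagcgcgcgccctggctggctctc
H2-Aa: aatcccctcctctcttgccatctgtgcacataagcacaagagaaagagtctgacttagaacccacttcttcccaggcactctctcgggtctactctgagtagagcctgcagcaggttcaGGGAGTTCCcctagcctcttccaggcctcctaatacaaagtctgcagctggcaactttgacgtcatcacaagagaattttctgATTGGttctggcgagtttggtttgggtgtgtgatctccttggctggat

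The kB pattern was in the windows of 8 of the 39 genes (H2-K1, H2-D1, H2-Q4, H2-Q6, H2-Q7, H2-M2, H2-Aa and H2-Oa). Counted by window it was in 9 of their 42 windows, against 5.82% of 32817 RefSeq windows. Distances between matches are given from first base to first base. From kB match to ATTGG box the distance was 95 bases in H2-K1 and H2-D1, 94 in H2-Q4 and H2-Q6, 93 in H2-Q7 and 83 in H2-Aa. A CCAAT followed the ATTGG by 23 bases in H2-D1 and 24 in H2-K1, H2-Q4, H2-Q6 and H2-Q7; in H2-K1 it lies after the start and is not printed. The Y box was found in 32 of 39 genes and in 34 of their 42 windows, against 37.4% of all windows. The interferon pattern was found in B2m, H2-T22 and H2-T23 (3.43% of all windows), and the glucocorticoid pattern in none of the 39 (0.475% of all windows). Only these exact forms were searched, so a window without a match may still hold another form of the element. The printed H2-K1, H2-Q4 and H2-Q7 windows hold agtttcacttct after the kB match, which the interferon pattern does not cover. Class I genes arose by duplication and share sequence, so these matches are not independent of each other. RefSeq windows for Nlrc5, H2-Ab1 and Ciita were not used here.

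Library totals ran from 11.6 to 50.1 M counts (M, 1000000), and no columns were identical. Cyp11b1 was at the limit of detection in every group: 9 reads over 4 libraries in topical controls, 7 over 2 in topical cKO, 2 over 2 in systemic controls and 4 over 1 in systemic cKO, so its deletion could not be checked from these counts. The summed markers of keratinocytes stood between 79419 and 113290 CPM (counts per 1000000 counts of the library). A set of 12 predicted satellite-like genes summed to over 50 CPM in all 5 systemic controls (79.4 to 11674 CPM) and in systemic cKO 2 (37287 CPM), and to 0.839 to 42.5 CPM in the other 14 libraries. Systemic controls and this signal cannot be told apart, which touches each systemic comparison below.

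Per kilobase of exon, H2-D1, B2m and H2-K1 were the most abundant of these messages in the sorted cells. Mean levels over the 20 libraries were 7798 RPKM (CPM per kilobase of exon) for the classical class I gene H2-D1, 6618 for B2m and 6265 for H2-K1, the other classical gene. Among nonclassical class I genes, H2-T23, which encodes Qa-1, had a mean of 497 RPKM, and H2-Q6, H2-Q4, H2-Q7 and H2-Q5 had means of 247, 228, 179 and 140.1. The processing genes below B2m ran from 106 RPKM for Tapbp and 22.5 for Tap1 down to 2.66 for Nlrc5. The other class I molecules that passed the filter reached down to 2.94 RPKM for H2-T10 and 1.52 for H2-Q10, below Cd74.

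In class II, Cd74 stood at a mean of 7.61 RPKM and H2-Eb1, H2-DMb1, H2-Ab1, H2-DMa and H2-Aa at 1.47, 1.21, 0.966, 0.529 and 0.469. Ciita was at 0.0434 RPKM. Cd274, which encodes the T-cell inhibitory ligand PD-L1, was at 0.947 RPKM, while the costimulatory ligands Cd80 and Cd86 failed the filter with 35 reads in 11 libraries and 12 reads in 6. The remaining 16 genes that failed it had 91 reads over all 20 libraries (H2-DMb2, a partner in class II loading), 36 (H2-M5), 20 (H2-T3), 1 to 9 (11 genes) or none (H2-M9 and H2-M10.3). In this annotation H2-Ea, with 1 read, is a polymorphic pseudogene. So are H2-Q5, H2-T10 and H2-Bl, which passed the filter and are counted below among the 16 class I molecules.

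**Figure D1:**
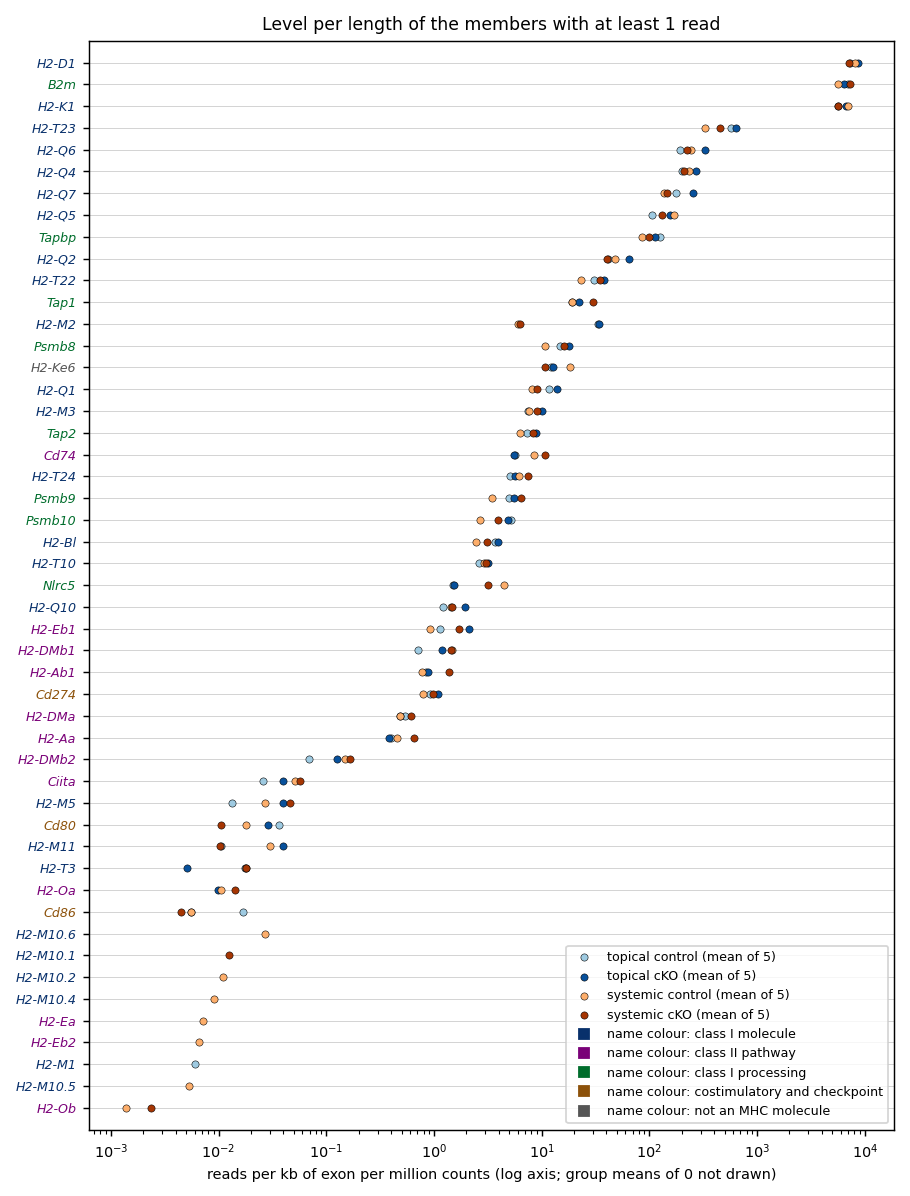
Group means (n = 5 mice each) of reads per kilobase of exon, scaled to library total (RPKM, log axis), for the members with at least 1 read, with 1 point per group and gene names coloured by class. H2-D1, B2m and H2-K1 have means of 6265 to 7798 RPKM over all libraries, whereas Cd74, the most abundant class II pathway gene, has a mean of 7.61.

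Class I messages spanned wide ranges between mice of the same group, and the groups overlapped. H2-K1 stood at 11358, 26573, 8182, 14297 and 25765 CPM in topical controls and at 11712, 10025, 37607, 3104 and 52409 CPM in topical cKO. In systemic controls it stood at 27948, 14675, 40192, 19304 and 7421 CPM, and in systemic cKO at 12909, 27025, 22386, 9102 and 16655 CPM. The highest topical cKO library (7) was 16.9 times the lowest (5), against 3.25 times among topical controls, 5.42 among systemic controls and 2.97 among systemic cKO. All class I molecules together made up 0.955% of the counts of topical cKO 5 and 9.87% of those of topical cKO 7.

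H2-D1 had the same profile, with 13131, 30529.5, 9572, 16206 and 29379 CPM in topical controls and 13538, 11289, 42966, 3609 and 57897 CPM in topical cKO. Its values in systemic controls were 29926, 14018, 42158, 19044 and 6637 CPM and in systemic cKO 12045, 31459, 26104, 9937 and 17774 CPM. B2m, the light chain common to class I molecules, was measured at 5182, 6335, 5379.8, 6049 and 7396 CPM in topical controls and 4188, 4657, 7778, 2617 and 10588 CPM in topical cKO. The same 2 topical cKO libraries were lowest and highest, but the fold between them was 4.05. In systemic controls B2m was at 5892, 3994, 6479, 5736 and 2639 CPM and in systemic cKO at 6660.1, 8667, 7488, 5439 and 4727 CPM, again with overlap. The nonclassical H2-Q7 and H2-Q6 spanned more than H2-K1, with the highest topical cKO library 46.5 and 49.9 times the lowest. H2-T10 and H2-T22 spanned less, with folds of 14.6 and 10.7. Among the 16 class I molecules H2-T24 varied least there, with a fold of 2.4.

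**Figure D2:**
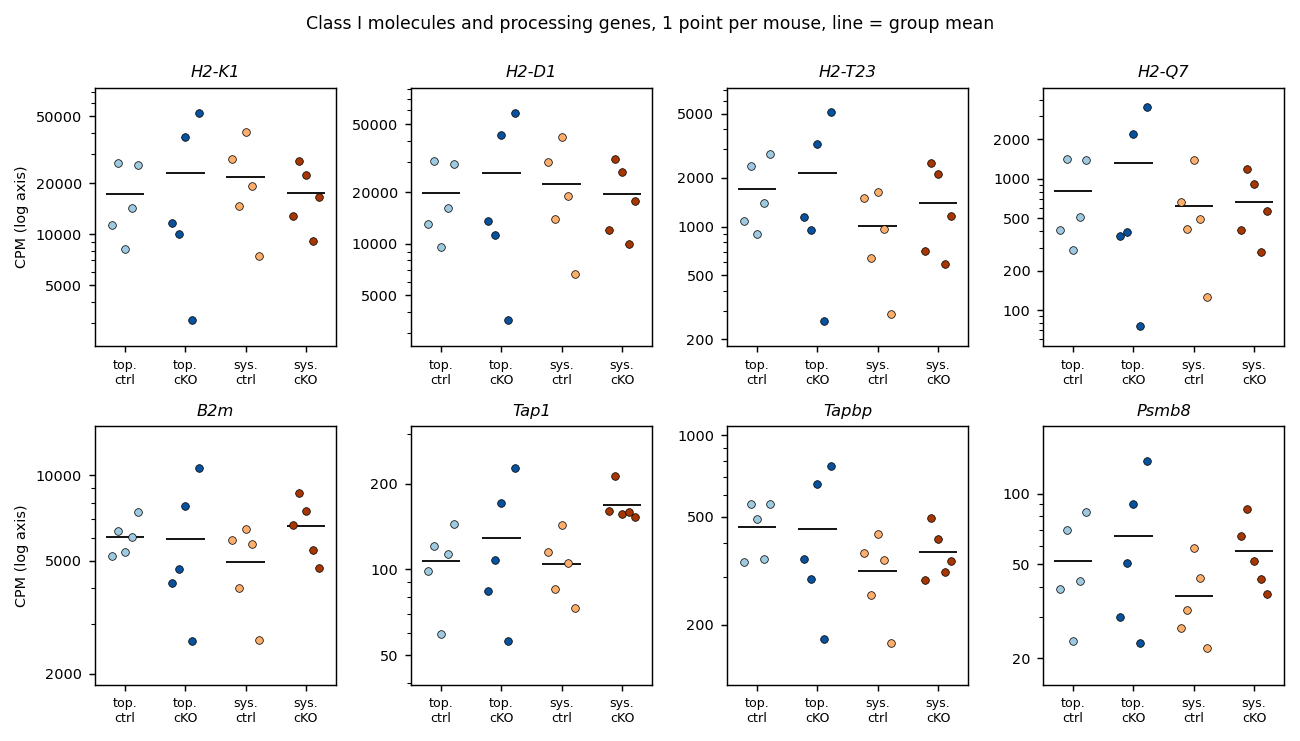
CPM (log axis) of 4 class I molecules and 4 processing genes in each of the 20 libraries by group, with a line at the group mean. Topical cKO 5 is the lowest and topical cKO 7 the highest library of its group for H2-K1 (3104 and 52409 CPM).

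The same libraries were low or high across the class. Topical cKO 5 was the lowest of its group in 16 of 16 class I molecules and 8 of 8 processing genes, and topical cKO 7 the highest in 15 of 16 and 8 of 8. Systemic control 6 was the lowest of its group in 16 of 16 class I molecules and systemic control 4 the highest in 15. Systemic cKO 6 was lowest in 15 and systemic cKO 4 highest in 13, and among topical controls mouse 5 was lowest in 14 and mice 3 and 7 each highest in 8. Within-group SDs of log2 CPM had a median of 1.19 over the 16 class I molecules (0.62 to 1.48). The median was 0.516 over processing genes, 0.505 over class II pathway genes and 0.346 over all genes tested, or 0.283 over the 7601 genes at or above the mean level of the least abundant class I molecule (6.08 CPM). These medians are descriptions of lists, with no test.

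Beside the class I levels, summed CPM of 12 leukocyte markers was 8.08 in topical cKO 5 and 2.96 in topical cKO 7, the highest and the lowest of all 20 libraries, so it ran opposite to class I in those 2 libraries, and most of that sum was Csf1r (mean 3.66 CPM). Summed fibroblast markers were highest in topical cKO 5, at 31.97 CPM against 1.37 to 20.8 CPM in the other 19 libraries. Summed melanocyte markers were highest in systemic control 6, at 31.0 CPM against 4.03 to 17.1 CPM in the others, and its fibroblast markers, at 20.8 CPM, were the second highest; these were the libraries lowest in class I in their groups. Summed endothelial markers were highest in the same libraries, topical cKO 5 (6.74 CPM) and systemic control 6 (6.56 CPM), against 0.803 to 6.15 CPM in the others. The part of these markers in the class I spread was not tested. The 2 topical cKO libraries held 29.8 and 14.5 M counts, and neither exceeded 50 CPM of satellite-like transcripts. As these are bulk samples, fewer cells of a type and less RNA per cell cannot be told apart.

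Across the 20 libraries, after subtracting group means from log2 CPM, H2-K1 varied together with other class I genes and with the loading machinery. Pearson's r and Spearman's rho with H2-K1 were 0.997 and 0.991 for H2-D1, 0.995 and 0.976 for H2-Q7 and 0.984 and 0.965 for H2-T23 (permutation within groups, n = 20, p = 1e-05 for each, the smallest 100000 permutations can give; adjusted p = 3e-05 for r and 4e-05 for rho over the 12 relations computed). For Tap1 they were 0.924 and 0.875 (adjusted permutation p = 3e-05 and 0.00017), for B2m 0.923 and 0.862 (4.8e-05 and 9e-05) and for Psmb8 0.859 and 0.814 (0.00034 and 0.0012). Without topical cKO 5 and 7, the 2 libraries farthest from the median of H2-K1, r was still 0.996 for H2-D1, 0.859 for B2m, 0.858 for Tap1 and 0.774 for Psmb8. Within the 14 libraries at or below 50 CPM of satellite-like transcripts r was 0.999, 0.927, 0.918 and 0.907 for these 4 genes. The 6 libraries above it were 5 of 1 group and 1 of another, too few for a value. The 12 relations were chosen after values had been seen, and their points share library size and normalization.

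Nlrc5, the class I transactivator, was not shown to follow H2-K1: r was 0.412 and rho 0.218 (adjusted permutation p = 0.22 and 0.45, n = 20), and without topical cKO 5 and 7 r was -0.0054. Cd74 gave r of 0.527 and rho of 0.40 (adjusted permutation p = 0.064 and 0.16), and r of 0.23 without the same 2 libraries. Within the 14 libraries, r with H2-K1 was 0.604 for Nlrc5 and 0.68 for Cd74. Cd74 was in turn related to H2-Aa (r 0.636, rho 0.698, adjusted permutation p = 0.015 and 0.0038) and H2-Ab1 (0.609 and 0.624, adjusted permutation p = 0.021 and 0.014), and not detectably to H2-Eb1 (0.35 and 0.248, adjusted permutation p = 0.22 and 0.36). Without the 2 libraries farthest in Cd74 (topical cKO 5 and systemic control 3), these 3 values of r were 0.562, 0.457 and 0.193, and within the 14 libraries 0.695, 0.693 and 0.299.

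**Figure D3:**
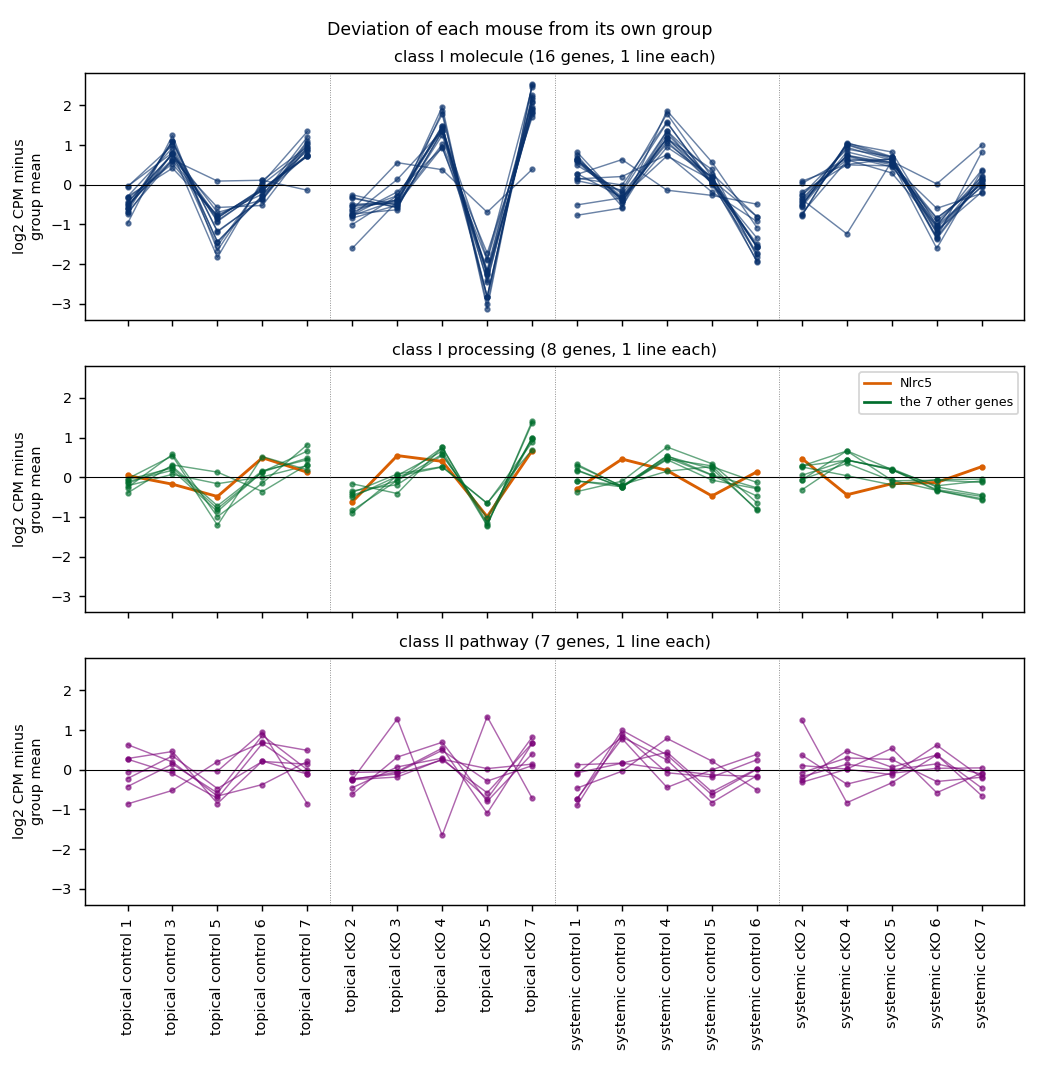
Log2 CPM minus the group mean (y axis) in each of the 20 libraries (x axis) for the 16 class I molecules, 8 processing genes and 7 class II pathway genes that passed the filter, 1 line per gene. Class I molecules and processing genes are low together in topical cKO 5 and high together in topical cKO 7.

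After topical tamoxifen, none of the 33 genes differed between cKO and control at an adjusted p under 0.05 (edgeR), where 0.129% of 12424 genes did (16 genes), and 2 of the 33 had an unadjusted p under 0.05, as had 5.66% of genes. DESeq2 also called none of the 33. All 16 class I molecules had fitted fold changes above 0, with a median log2 fold change of 0.43, beside 0.020 for all genes tested, of which 54.0% were above 0. Without topical cKO 7 that median was -0.11 and 5 of 16 were above 0, and without topical cKO 5 it was 0.71. For H2-K1 the log2 fold change was 0.41 (SE 0.57, adjusted p = 0.997), so a difference of its size could not be told from the spread between mice. Of 8 processing genes 5 were above 0 (median 0.15; -0.18 without topical cKO 7), and of 7 class II genes 4 (median 0.096, from -0.10 without topical cKO 4 to 0.37 without topical control 6). Without topical cKO 5 the processing median was 0.33.

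The 2 genes with an unadjusted p under 0.05 were in the class II pathway. H2-Eb1, a class II beta chain, was measured at 1.06, 1.37, 2.32, 3.28 and 2.85 CPM in topical controls and 2.9, 4.21, 4.92, 2.37 and 7.14 CPM in topical cKO (log2 fold change 0.96, SE 0.31, adjusted p = 0.609). H2-DMb1, a chain of the H2-DM peptide exchanger, had 1.82, 1.31, 0.683, 0.857 and 1.33 CPM and 1.68, 1.84, 2.38, 1.3 and 3.22 CPM (log2 fold change 0.73, SE 0.31, adjusted p = 0.799). In both genes the groups overlapped.

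After systemic tamoxifen, 1 of the 33 genes was called between cKO and control, where 1.89% of genes tested were (1.36% higher, 0.531% lower): H2-Ke6, the dehydrogenase, was lower in cKO. It was at 26.2, 22.7, 32.5, 35.1 and 28.4 CPM in systemic controls and 20.5, 19.2, 15.5, 14 and 20.4 CPM in systemic cKO (log2 fold change -0.69, SE 0.15, adjusted p = 0.017), and the groups did not overlap, as for 0.918% of genes in that direction. The call was lost without systemic control 4 (adjusted p = 0.0588), systemic control 5 (0.0538), systemic cKO 5 (0.0665) or systemic cKO 6 (0.0657), in a fit of these 10 libraries alone and with satellite-like signal as a covariate. In topical libraries H2-Ke6 was at 20.4, 19.1, 17.1, 22.4 and 19.7 CPM in controls and 16.5, 18.2, 26.5, 20.5 and 22.8 CPM in cKO, which overlap. Reads of H2-Ke6 are uncertain, because 70.5% of its transcript windows of 50 bases also occur in the overlapping model Gm20427.

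No MHC or processing gene proper was called in this comparison, although 7 of them had an unadjusted p under 0.05, all with higher fitted levels in cKO; 15.3% of genes tested had such a p. Tap1, the transporter subunit, was at 115, 85.2, 143, 105 and 73 CPM in systemic controls and 160.4, 213, 157, 159 and 153 CPM in systemic cKO (log2 fold change 0.69, SE 0.30, adjusted p = 0.257). Every cKO value lay above every control value, which held for 1.02% of genes in that direction. Psmb9, an immunoproteasome subunit, was at 11.5, 10.3, 17.9, 12.8 and 10.2 CPM and 22.5, 37.5, 27.1, 19 and 16.9 CPM (log2 fold change 0.98, SE 0.37, adjusted p = 0.189), and the groups overlapped only through systemic control 4 and systemic cKO 7. For Psmb10 the log2 fold change was 0.67 (adjusted p = 0.257).

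The class II chains had a similar profile. H2-Eb1 was at 1.53, 1.83, 2.24, 1.07 and 1.65 CPM in systemic controls and 4.32, 2.57, 3.13, 3.41 and 3.44 CPM in systemic cKO (log2 fold change 1.0, SE 0.31, adjusted p = 0.103), again without overlap, and DESeq2 called it (adjusted p = 0.0455). H2-Ab1, the beta chain of the other class II molecule, was at 0.957, 2.91, 1.19, 1.64 and 2.19 CPM and 2.91, 4.89, 3.65, 4.55 and 2.19 CPM (log2 fold change 1.02, SE 0.35, adjusted p = 0.138), and H2-Aa, its alpha chain, at 0.702, 2.69, 1.32, 1.22 and 1.68 CPM and 2.2, 2.76, 2.49, 2.78 and 2.31 CPM (log2 fold change 0.71, SE 0.29, adjusted p = 0.232). H2-Aa and H2-Ab1 each overlapped between groups through systemic control 3 alone. For H2-Ab1, systemic control 6 (2.187 CPM) lay just below systemic cKO 7 (2.188 CPM). Over the lists, 7 of 7 class II genes and 7 of 8 processing genes had fitted fold changes above 0 (medians 0.49 and 0.54, the former 0.74 without systemic control 3), against 49.5% of all genes (median -0.0045). Of the class I molecules 10 of 16 were above 0, with a median of 0.084 that ran from -0.16 without systemic control 6 to 0.48 without systemic control 4. With the satellite-like covariate 2 of 16 were above 0.

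**Figure D4:**
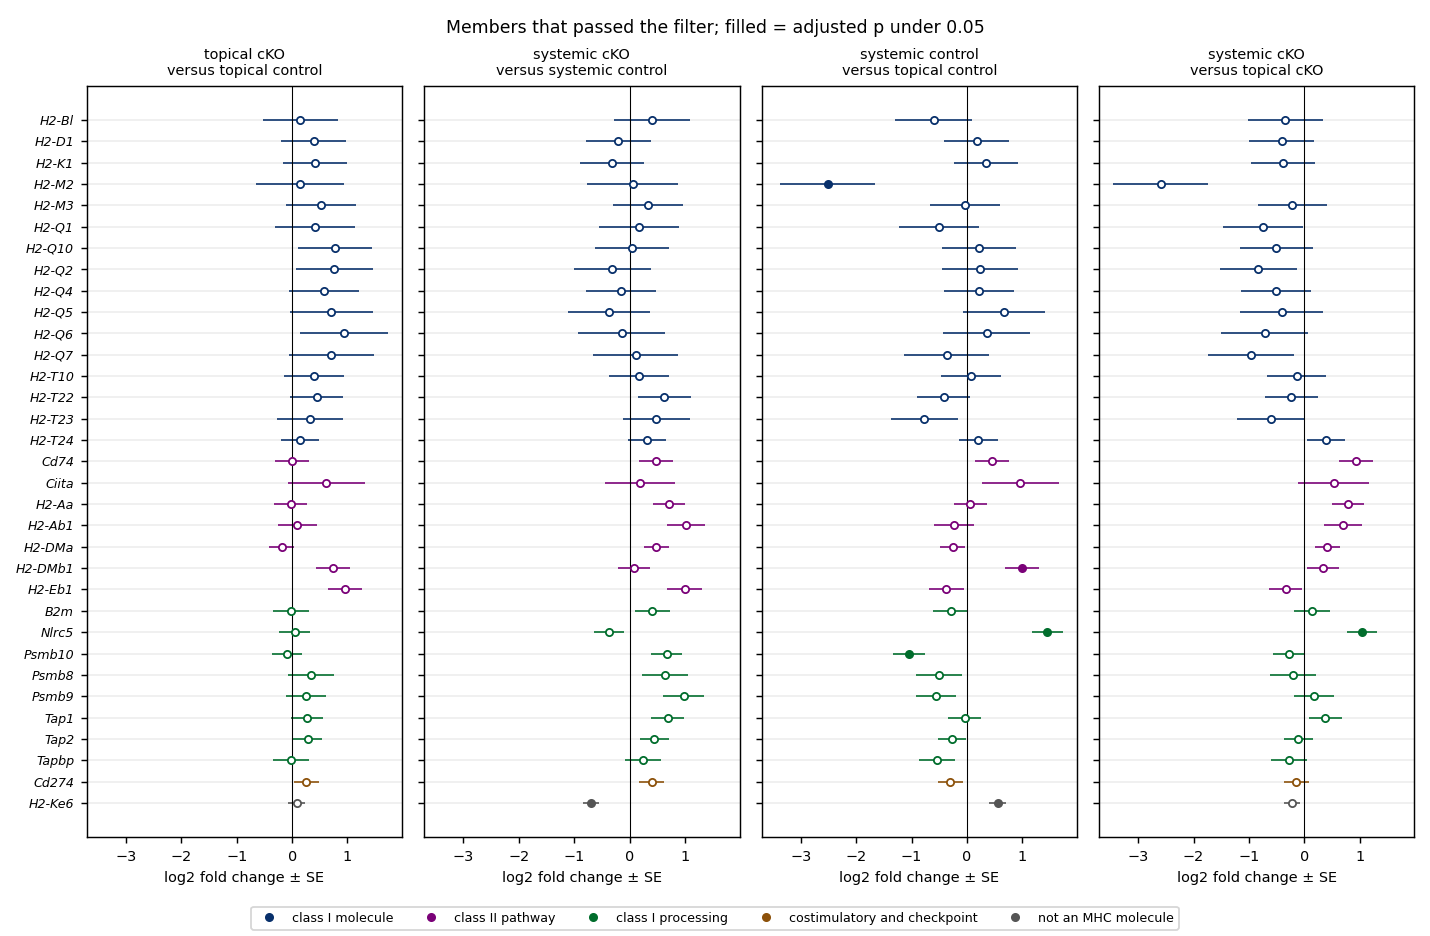
Fitted log2 fold changes with their standard errors for the 33 genes that passed the filter, grouped by class, in both genotype and both route comparisons (filled points, adjusted p under 0.05). In the topical genotype comparison 0 and in the systemic genotype comparison 1 of 33 passed an adjusted p of 0.05.

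Summed leukocyte markers stood at 3.95 to 6.96 CPM in systemic controls, 4.67 to 5.62 in systemic cKO, 3.84 to 6.79 in topical controls and 2.96 to 8.08 in topical cKO. Cd207 (langerin, the defining Langerhans cell gene) had at most 10 reads in a library and was at 0 in 2 of 20, Ptprc (CD45) had 16 reads in 10 libraries, and Itgax (CD11c) 2 reads in all. The part of such cells in the class II levels was not tested. Ciita was at 0.0739 to 0.50 CPM in topical controls, 0 to 0.664 in topical cKO, 0.191 to 0.862 in systemic controls and 0.22 to 1.23 in systemic cKO, with overlap throughout.

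The genotype by route interaction, that is, the systemic genotype effect minus the topical one, was called for none of the 33 genes, where 0.25% of genes tested were called (31 genes), and 2 of the 33 had an unadjusted p under 0.05, as had 14% of genes. These were H2-Ke6 (log2 fold change -0.77, SE 0.21, adjusted p = 0.094), which DESeq2 called (adjusted p = 0.0337), and H2-DMa, a chain of H2-DM (log2 fold change 0.68, SE 0.32, adjusted p = 0.34). The median over class I molecules was -0.41 (from -0.70 without topical cKO 5 to 0.23 without topical cKO 7), beside -0.028 over all genes. Over processing genes it was 0.36 (from 0.15 without topical cKO 5 to 0.74 without topical cKO 7), and over class II genes 0.49 (from 0.28 without topical cKO 5 to 0.72 without systemic control 3). For H2-K1 the interaction was -0.73 with an SE of 0.81. Of the 16 class I molecules 4 had a fitted interaction above 0, and 0 with the satellite-like covariate. The 2 genotype comparisons use different mice, but the interaction shares its libraries with both.

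Nlrc5 was higher in systemic than in topical groups of both genotypes. Between systemic and topical controls 5 of the 33 genes were called, 3 higher and 2 lower in systemic controls, where 18.3% of genes tested were called (10.2% higher, 8.16% lower). Nlrc5 was at 12.8, 10.9, 8.81, 17.4 and 13.5 CPM in topical controls and 27.5, 46.4, 38, 24.3 and 37.1 CPM in systemic controls (log2 fold change 1.45, SE 0.28, adjusted p = 0.0014). All 5 systemic controls lay above all topical controls, as for 7.54% of genes in that direction, and the call held when any 1 of the 10 libraries was left out. Nlrc5 lies at chr8:94434356-94527272 on the plus strand of GRCm38, and 78 bases of its exons overlap the antisense gene 9330175E14Rik.

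Nlrc5 was also the 1 member of 33 called between systemic and topical cKO, where 9.22% of genes were called (5.19% higher, 4.02% lower). It was at 7.76, 17.5, 15.8, 5.97 and 19.1 CPM in topical cKO and 36.6, 19.4, 23.5, 24 and 31.7 CPM in systemic cKO (log2 fold change 1.04, SE 0.28, adjusted p = 0.0196), and every systemic value lay above every topical one, as for 4.07% of genes. This call was lost without topical cKO 2 (adjusted p = 0.0639), topical cKO 5 (0.0526) or systemic cKO 2 (0.0517), while the fold change kept its sign. It was also lost without the libraries above 50 CPM of satellite-like signal (adjusted p = 0.0652). With that signal as a covariate the value in controls was 0.88 (adjusted p = 0.945), where the covariate equals the group, and the adjusted p in cKO was 0.0521. None of the 33 genes lay wholly lower in the systemic group, which 6.26% of genes did in controls and 3.32% in cKO. Over the class I molecules the median log2 fold change between routes was 0.13 in controls (9 of 16 above 0). It was -0.26 without systemic control 4 (3 of 16 above 0), 0.30 without systemic control 6 and 0.66 with the satellite-like covariate (15 of 16 above 0). In cKO the median was -0.46 (1 of 16 above 0), from -0.75 without topical cKO 5 to 0.15 without topical cKO 7.

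**Figure D5:**
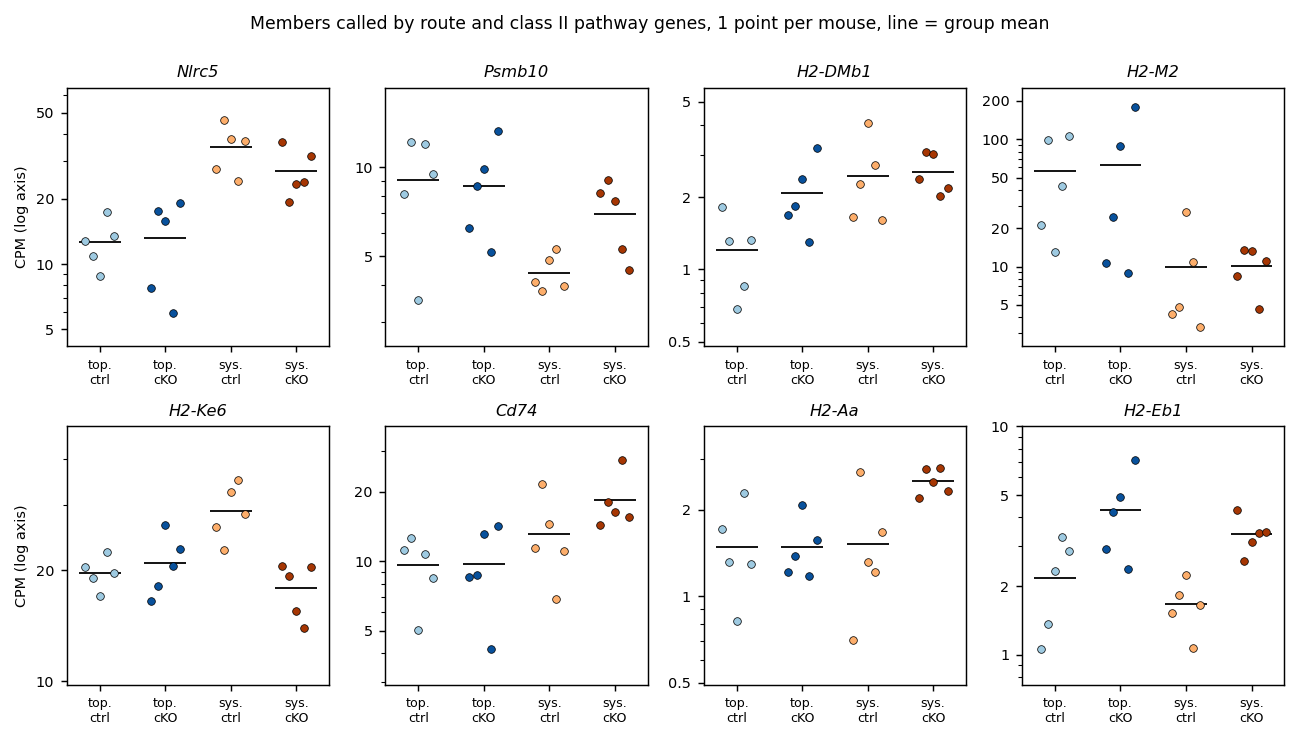
CPM (log axis) of Nlrc5, Psmb10, H2-DMb1, H2-M2, H2-Ke6, Cd74, H2-Aa and H2-Eb1 in each of the 20 libraries by group, with a line at the group mean. The systemic libraries lie above the topical ones for Nlrc5 in both genotypes, and the lowest systemic cKO value of Nlrc5, 19.4 CPM, is just above the highest topical cKO value, 19.1 CPM.

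Psmb10, the third immunoproteasome subunit (chr8:105935735-105938444, minus strand), was lower in systemic than in topical controls. It was at 8.12, 12.1, 3.55, 12 and 9.5 CPM in topical controls and 4.09, 3.82, 4.87, 5.29 and 3.99 CPM in systemic controls (log2 fold change -1.05, SE 0.29, adjusted p = 0.0148). The groups overlapped through topical control 5, whose 3.55 CPM was the lowest of all, and the call held when any 1 library was left out. Systemic cKO, at 8.19, 9.09, 7.7, 5.31 and 4.5 CPM, overlapped topical cKO, at 6.23, 8.65, 9.85, 5.16 and 13.2 CPM (log2 fold change -0.28, SE 0.28, adjusted p = 0.592). The RefSeq window of Psmb10 held none of these patterns.

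H2-Ke6, whose levels are given above, was higher in systemic than in topical controls (log2 fold change 0.56, SE 0.15, adjusted p = 0.013) without overlap. H2-DMb1 was at 1.66, 2.26, 4.08, 2.72 and 1.6 CPM in systemic controls, against the topical control values above (log2 fold change 0.99, SE 0.30, adjusted p = 0.0272). Those groups overlapped, and the call was lost without topical control 5 (adjusted p = 0.0658), topical control 6 (0.0607) or systemic control 4 (0.0998). H2-DMb1 shares 22.7% of its windows with H2-DMb2, so reads may be split between them.

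H2-M2, a nonclassical class I gene, was at 21.1, 98.5, 13.1, 42.9 and 105 CPM in topical controls and 4.21, 4.79, 26.7, 10.8 and 3.38 CPM in systemic controls (log2 fold change -2.51, SE 0.85, adjusted p = 0.0496). It was at 10.7, 24.4, 87.7, 8.88 and 180.2 CPM in topical cKO and 8.37, 13.5, 13.2, 4.68 and 11 CPM in systemic cKO (log2 fold change -2.60, SE 0.85, adjusted p = 0.0673). Topical libraries were the higher ones on the whole in both genotypes, with overlap. In cKO the adjusted p was 0.0131 by DESeq2, 0.0460 without topical cKO 2 and 0.0497 without topical cKO 5. The control call kept its side of the threshold in 3 of 10 fits that left out a library. It was lost without topical controls 3, 6 or 7 or systemic controls 1, 3, 5 or 6, with adjusted p from 0.0609 to 0.118. Of 6 other alternative fits, 2 kept the control call and 4 lost it.

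Cd74 was at 11.2, 12.7, 5.05, 10.7 and 8.5 CPM in topical controls, 8.58, 8.71, 13.2, 4.16 and 14.3 CPM in topical cKO and 11.4, 21.8, 14.5, 6.86 and 11 CPM in systemic controls. In systemic cKO it was at 14.4, 18, 16.4, 27.5 and 15.6 CPM, each value above those of topical cKO (14.4 against 14.3 CPM at the nearest), as for 4.07% of genes, although the call was missed (log2 fold change 0.93, SE 0.31, adjusted p = 0.0621). DESeq2 called it (adjusted p = 0.0410), as did a fit without topical cKO 7 (adjusted p = 0.0386). H2-Aa likewise did not overlap between the cKO groups, with 1.21, 1.38, 2.08, 1.17 and 1.57 CPM in topical cKO beside the systemic cKO values above (log2 fold change 0.79, SE 0.29, adjusted p = 0.0978). DESeq2 called it (adjusted p = 0.0464), as did a fit of only these 10 libraries (adjusted p = 0.0495). In topical controls H2-Aa was at 1.71, 1.31, 0.819, 2.29 and 1.29 CPM and H2-Ab1 at 1.46, 2.21, 1.3, 3.71 and 2.0 CPM, while H2-Ab1 in topical cKO was at 1.37, 2.71, 3.54, 1.2 and 2.88 CPM. These topical groups overlapped in both genes.

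The remaining processing genes were not called in any of the 5 comparisons. Tap1 was at 98.9, 121, 59.5, 113 and 144 CPM in topical controls and 83.8, 108, 171, 56.3 and 227 CPM in topical cKO. Tap2, the other transporter subunit, was at 24.9, 30.4, 14.7, 29.6 and 42.5 CPM in topical controls and 22.8, 32.8, 38.5, 20.3 and 59.3 CPM in topical cKO, and at 26, 19.4, 31.5, 22 and 19 CPM in systemic controls and 38.3, 32.9, 28, 30.7 and 30.9 CPM in systemic cKO. In both genes the extremes were topical cKO 7 at the top and a library numbered 5 of the topical groups at the bottom. Tapbp was at 339.8, 556, 490.0, 349 and 559 CPM in topical controls and 350.3, 296, 663, 177 and 769.7 CPM in topical cKO, and at 367, 257, 432, 347 and 171 CPM in systemic controls and 292, 495, 414, 314 and 342 CPM in systemic cKO. Psmb8 was at 39.3, 70.3, 23.6, 42.5 and 83.3 CPM in topical controls and 29.8, 50.5, 90.1, 23.1 and 138 CPM in topical cKO, and at 26.8, 32.2, 58.5, 43.6 and 22 CPM in systemic controls and 66.3, 86.2, 51.7, 43.3 and 37.5 CPM in systemic cKO. All groups overlapped for both.

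Psmb9 was at 15.9, 21.4, 10.7, 19.9 and 24.1 CPM in topical controls and 9.48, 18.3, 28, 7.53 and 47.5 CPM in topical cKO. Its exons and those of Tap1 overlap by 212 bases on opposite strands, and no source used here states that strand was counted. Cd274 was at 2.62, 3.1, 3.28, 3.36 and 4.36 CPM in topical controls and 3.56, 3.29, 4.38, 2.78 and 6.27 CPM in topical cKO, and at 3.19, 2.69, 2.77, 2.14 and 2.79 CPM in systemic controls and 5.73, 3.35, 2.88, 2.97 and 3.31 CPM in systemic cKO. Its highest values were in topical cKO 7 and systemic cKO 2, and its log2 fold changes between genotypes were 0.25 (topical) and 0.40 (systemic), with adjusted p of 0.997 and 0.425.

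Of 37 other genes of the same pathways, 32 passed the filter. None was called in the topical genotype comparison, where 0.129% of genes were. In the systemic one, where 1.89% were, Ifi30 alone was called: this thiol reductase of the endosome, which unfolds antigens for class II loading, was at 23.4 to 37.6 CPM in systemic controls and 45.5 to 70.2 CPM in systemic cKO (log2 fold change 0.93, SE 0.15, adjusted p = 0.00187). The interaction was called for it too, as for 0.185% of genes in that direction (log2 fold change 1.19, SE 0.21, adjusted p = 0.0138), and in topical libraries it was at 43.7 to 55.8 CPM in controls and 31.9 to 48.7 CPM in cKO. Both calls held without any 1 library and were lost with the satellite-like covariate (log2 fold changes 0.55 and 0.81).

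Between controls of the 2 routes, 1 of the 32 was higher and 8 were lower in the systemic group, where 10.2% of genes were higher and 8.16% lower. Rfx5, a subunit of the factor that binds the promoter module of both MHC classes, was higher (log2 fold change 0.79, SE 0.16, adjusted p = 0.00233). The endoplasmic reticulum chaperones of class I folding and loading Calr, Canx and Pdia3 were lower, with log2 fold changes of -0.87, -0.87 and -0.96. The constitutive proteasome subunits Psmb5 and Psmb7 (-1.64 and -0.89), the peptide-trimming Erap1 (-0.45), the MHC-like Mr1 (-0.58) and Ifi30 (-0.65) were lower as well. Between cKO groups 3 of the 32 were called, where 9.22% of genes were (5.19% higher, 4.02% lower): the kinase Jak1 (0.57) and Ifi30 (0.54) were higher and the proteasome activator Psme3 (-1.02) was lower in the systemic group. The route comparisons share their libraries with the genotype comparisons, so the lists are given side by side only. The Psme3 call was lost in 7 of 10 fits that left out a library, that of Ifi30 in cKO without topical cKO 2, 3 or 5 or systemic cKO 5, and that of Psmb5 without topical controls 3 or 7 or systemic controls 3 or 6. The Calr call was lost without topical control 3 (adjusted p = 0.0557), that of Canx without topical control 5 or systemic controls 4 or 6, and that of Erap1 without topical control 5 or systemic control 4. With the satellite-like covariate, which equals the group among controls, none of these 9 calls between controls held, nor did the 5 of members.

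Counts of several class I genes cannot be assigned to 1 gene with certainty. Of their 50-base transcript windows, H2-Q5 shares 36.5% with other genes, H2-T22 34.5% (mostly with H2-T10), H2-T10 32.9%, H2-Q6 32% and H2-Q7 26.4%, against 12.8% for H2-D1, 9.63% for H2-K1 and none for B2m, Nlrc5, Psmb10 and Cd74. H2-K1 (chr17:33996017-34000347, minus strand) and H2-D1 (chr17:35262730-35267499, plus) lie in the MHC, and B2m lies on another chromosome (chr2:122147686-122153083, plus).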

How the data were processed

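Total RNA of sorted keratinocytes per mouse was sequenced. The authors deposited 1 table of raw counts (whole reads per gene, not normalized) for 25719 genes and 20 libraries. Per the submitters' processing notes STAR and featureCounts were used with GRCm38/mm10; versions, annotation release and strand setting are not given in the sources used here. GENCODE M21 supplied exon lengths and overlaps, and RefSeq the promoters.

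All 20 libraries were fitted with edgeR 4.0.16 (R 4.3.3): TMM normalization, filterByExpr (minimum count 10, minimum total 15; 12424 genes kept), robust quasi-likelihood F tests, two-sided, 1 coefficient per group, 5 comparisons. P-values were adjusted by Benjamini-Hochberg over all genes tested, and calls are adjusted p under 0.05. Levels are CPM with TMM factors; marker sums and satellite-like sums use library totals. RPKM divides by exon length. Within-group SDs of log2 CPM are pooled per gene over the 4 groups of 5 mice, taken as separate animals per the labels. The SD for values that moved is pooled over the groups compared.

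The named genes were fixed by a rule: the principal genes of each class plus any member called in any comparison; others appear by level, range or count. Members and lists were chosen with earlier results of these data known. On simulated counts with 12291 genes tested, 164 of 200 genes changed by 1.5 (log2) in the topical comparison were called. With them 6 unchanged genes were called, and 0 in an unchanged comparison. The changed genes were drawn at random from all genes tested, whose median within-group SD was 0.346. That share therefore does not carry over to class I molecules, with a median SD of 1.19. Alternatives were DESeq2 1.42.0, its size factors, other filters and fits, a block for mouse numbers, satellite-like signal, and leaving out each library. Of the 12 correlations computed, 1 is not reported here.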

Additional observations from a re-analysis of the deposited data

Results flagged for a closer look

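Of 132 sets of 5 libraries (33 genes in 4 groups), 4 held a value set far apart from the other 4, where chance gives about 1 in 20. All 4 were in systemic cKO. Tap1 was at 213 CPM in systemic cKO 4, with the next at 160 CPM. H2-Q5 was at 63.7 CPM in systemic cKO 6, with the next at 198 CPM. H2-T10 was at 3.79 CPM in the same library, with the next at 10.6 CPM. Cd274 was at 5.73 CPM in systemic cKO 2, with the next at 3.35 CPM.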

How the results depend on the processing

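The counts of called genes depended on the tool and on single libraries. The DESeq2 Wald test called 42 genes of the table in the topical genotype comparison, 559 in the systemic one and 321 in the interaction, against 16, 235 and 31, and among members 2 in the systemic genotype comparison, 1 in the interaction and 4 between cKO groups. A fit of only the libraries compared called 35 genes and 0 members in the systemic genotype comparison. Satellite-like signal as a covariate left 0 genes in the systemic genotype comparison, 0 in the interaction and 1 between controls, with 0 members in the systemic genotype and both route comparisons, and gave Calr 0.19 between controls, of the opposite sign. Without libraries above 50 CPM of that signal, 0 members were called between cKO groups.

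With mouse number as a replicate block, 9 genes were called in the topical genotype comparison, 0 in the interaction (Ifi30, adjusted p = 0.0569) and 2 members between cKO groups. Correlations of same-numbered libraries ran from -0.14 to 0.34 in the topical and from -0.018 to 0.24 in the systemic pairs, so the numbers were not taken to pair mice.

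Leaving out 1 library at a time, genes called ran from 10 to 19 (topical genotype), 81 to 787 (systemic genotype), 16 to 470 (interaction), 1463 to 2524 (controls by route) and 746 to 1218 (cKO by route). Without systemic cKO 2 the systemic genotype and interaction counts were the highest. Members called ran from 0 to 0, 0 to 1, 0 to 1, 3 to 5 and 0 to 2 in the same order. Of 158 member results that were not called, 2884 alternative values were computed: 238 changed sign, 16 moved by 1 SD or more and 11 were called. The cause of these changes was not tested.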
